A study of Mus musculus with 16 samples.

Results

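R7T1 cells are a mouse pancreatic beta-cell line. They were treated with BayK8644 (labelled BayK8644(2a)) and exendin-4 together, with BayK8644 alone, with exendin-4 alone, or with the DMSO vehicle, and RNA was taken at 0.5, 2, 6 and 24 h. BayK8644, a dihydropyridine agonist, prolongs the opening of L-type calcium channels. Exendin-4, a peptide, activates the receptor for GLP-1. What 2a means is not explained, so reading the compound as BayK8644 is an assumption, and the sources used here give neither doses nor the clonal origin of the line. There were 16 arrays, 1 for every combination of 4 treatments and 4 times. Nothing in the labels gives them separate cultures, and no array is a replicate of another. A p-value here therefore reflects only how far these arrays depart from a fitted model, and that scatter may be technical.

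The genes described here are 34 genes of sterol and fatty acid synthesis, chosen by gene symbol as members of these pathways. They comprised 8 enzymes of the mevalonate and isoprenoid steps, 11 enzymes from squalene to cholesterol, 4 genes of the sterol sensor, 3 genes of sterol transport and 8 genes of fatty acid synthesis and desaturation. Levels are log2 intensities. A gene was tested where a probe set reached log2 4 on at least 2 arrays, and its brightest such probe set stood for it. Of the 34 genes, 32 were tested, among 10610 genes in all. Acat2, an acetoacetyl-CoA thiolase, had no probe set under that symbol and was not analysed here. Scd1, a stearoyl-CoA desaturase, had 2 probe sets and neither passed, the brighter lying between 2.41 and 3.47. The dimmest tested gene of the set was Mvd, mevalonate diphosphate decarboxylase, between 7.31 and 8.12, so no tested gene lay near the filter.

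Cells build cholesterol from acetyl-CoA through mevalonate, isoprenoid diphosphates, squalene and lanosterol. The transcription factor encoded by Srebf2 switches on most of these enzymes: Scap carries its precursor out of the endoplasmic reticulum for cleavage when sterols are scarce, and the Insig proteins hold Scap back when sterols are plentiful. Fatty acid synthesis starts from the same acetyl-CoA and is governed mainly by a related factor. In beta cells, membrane cholesterol and newly made fatty acids are known to affect calcium channels and insulin granule release.

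The promoters of 5 genes are shown because 4 of them, Hmgcs1, Idi1, Cyp51 and Msmo1, encode enzymes of the pathway that rose with BayK8644 at 2 h, and the other, Acly, encodes the enzyme that fell at 24 h. Each sequence is the 250 bases before the annotated start of the gene in RefSeq, build GRCm38.p6, written 5′ to 3′ on the strand of the gene. Capitals mark CCAAT, the box bound by the factor NF-Y, or its reverse complement ATTGG, and, in Hmgcs1, one match to the sterol regulatory element TCACNCCAC. The windows are Hmgcs1 at chr13:119690101-119690350 on the plus strand, Idi1 at chr13:8885356-8885605 on the plus strand, Cyp51 at chr5:4104698-4104947 on the minus strand, Msmo1 at chr8:64733579-64733828 on the minus strand and Acly at chr11:100528001-100528250 on the minus strand.
Hmgcs1: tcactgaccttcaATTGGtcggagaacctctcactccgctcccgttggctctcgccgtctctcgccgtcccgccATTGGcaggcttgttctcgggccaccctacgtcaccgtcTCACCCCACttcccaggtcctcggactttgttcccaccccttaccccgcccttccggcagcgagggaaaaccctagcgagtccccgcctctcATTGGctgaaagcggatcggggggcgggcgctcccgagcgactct
Idi1: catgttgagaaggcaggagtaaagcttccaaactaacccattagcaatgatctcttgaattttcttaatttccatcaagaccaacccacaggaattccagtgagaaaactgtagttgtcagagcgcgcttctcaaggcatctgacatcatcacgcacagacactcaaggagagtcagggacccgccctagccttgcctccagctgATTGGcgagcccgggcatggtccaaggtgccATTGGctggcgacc
Cyp51: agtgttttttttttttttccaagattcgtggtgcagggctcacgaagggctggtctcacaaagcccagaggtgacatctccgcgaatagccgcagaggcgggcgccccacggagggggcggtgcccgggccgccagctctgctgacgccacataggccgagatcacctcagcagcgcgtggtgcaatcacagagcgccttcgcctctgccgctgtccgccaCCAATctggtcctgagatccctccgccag
Msmo1: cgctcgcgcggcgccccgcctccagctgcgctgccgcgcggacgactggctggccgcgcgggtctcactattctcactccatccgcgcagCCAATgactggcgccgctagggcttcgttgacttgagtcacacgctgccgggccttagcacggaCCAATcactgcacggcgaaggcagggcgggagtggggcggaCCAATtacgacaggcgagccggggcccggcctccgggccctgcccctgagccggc
Acly: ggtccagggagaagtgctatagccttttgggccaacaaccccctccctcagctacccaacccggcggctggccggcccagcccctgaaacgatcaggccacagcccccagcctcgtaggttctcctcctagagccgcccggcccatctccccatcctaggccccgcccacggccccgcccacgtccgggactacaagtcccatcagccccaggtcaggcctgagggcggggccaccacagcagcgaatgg

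RefSeq promoters were found for 26 of the 34 genes, 32 promoters in all, and 8 of these belonged to genes that rose with BayK8644 at 2 h (Hmgcs1, Idi1, Lss, Cyp51, Msmo1, Nsdhl, Srebf2 and Insig1). CCAAT on either strand was found in 8 of those 8, against 12 of 23 promoters of tested genes of the set that did not pass at 2 h and 33.8% of all 32851 promoters in the table. These counts are of promoters, and some genes recur among the 23. Dhcr7 and Insig2 had 3 promoters each, and Pmvk and Scap 2 each. Only 1 promoter each of Dhcr7, Insig2 and Pmvk held CCAAT, and none of Scap did, so the share by gene is higher. GGGCGG, the Sp1 box, was in 8 of the 8 and in 14 of the 23, and in 32.7% of all promoters. TGACG, the core of the cAMP response element, was in 4 of the 8 and in 5 of the 23, and in 17.8% of all. TCACNCCAC was in 1 of the 8, the Hmgcs1 promoter shown above, and in 0 of the 23 and 1.05% of all. In Hmgcs1 the match TCACCCCAC lay 129 to 137 bases before the start, between CCAAT boxes 41 to 45 and 172 to 176 bases before it. Msmo1 had 3 CCAAT boxes and Acly had 0 with 4 GGGCGG. No matches of different motifs overlapped. A match describes the letters and shows no binding.

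Summary measures of the 16 arrays lay in narrow ranges. The median intensity lay between 10.5 and 11.6, the share of probe sets at log2 4 or more between 46.6 and 47.6%, and the Actb 3′ minus 5′ difference, a sign of RNA quality, between 0.59 and 0.80. The deposited values were quantile-normalized, which by itself brings the median and that share close, so these are no check of array quality. Beta-cell markers were present: 11 of 12 listed had a probe set and all 11 passed, with a mean log2 level between 12.95 and 13.17 with BayK8644 and between 12.94 and 13.17 without it. Of 9 mesenchymal, endothelial and leukocyte markers 0 passed, and of 8 acinar and duct markers 7 had a probe set and 1 passed. Of the 6 alpha, delta and PP cell markers 2 passed, Gcg (glucagon) and Sst (somatostatin), and both rose at 24 h with BayK8644, by 0.56 and 2.36 on the log2 scale. Sst read 7.61 with both agents and 7.37 with BayK8644 at 24 h, against 5.13 with exendin-4 and 5.14 with DMSO. The mean level of the 4 markers of that list with a probe set, the failing Hhex and Ppy included, lay between 5.15 and 5.23 with BayK8644 and between 4.46 and 4.47 without it at 24 h, and between 4.58 and 4.74 with BayK8644 and between 4.57 and 4.59 without it at 2 h. Gcg had also risen at 6 h, by 0.52. Nkx2-2, a beta-cell transcription factor, fell with BayK8644 by 0.38 at 2 h, 0.35 at 6 h and 0.64 at 24 h. These shifts moved with BayK8644 beside the lipid gene changes at 2, 6 and 24 h, and their part in those changes was not tested. As a check on the agents, Fos and Egr1, immediate-early genes, rose by 2.78 and 2.87 with BayK8644 at 0.5 h. Exendin-4 raised Nr4a1, another early gene, by 2.12 at 0.5 h, although the probe set of its receptor Glp1r lay between 2.04 and 2.08 on all arrays, below the filter.

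With BayK8644, 8 mevalonate and sterol enzymes (Hmgcs1, Idi1, Fdft1, Sqle, Lss, Cyp51, Msmo1 and Nsdhl) and the sensor genes Srebf2 and Insig1 rose at 2 h. Of these 10 genes 7 were called again at 6 h, and Idi1 and Cyp51 at 24 h. No fatty acid gene passed as higher with BayK8644 at a single time. Elovl6, which did not pass, had differences of 0.44, 0.37 and 0.36 at 2, 6 and 24 h. At each of these times both its arrays with BayK8644 lay above both without it. The plot of differences from DMSO gives the pattern for all 32 genes.

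**Figure D1:**
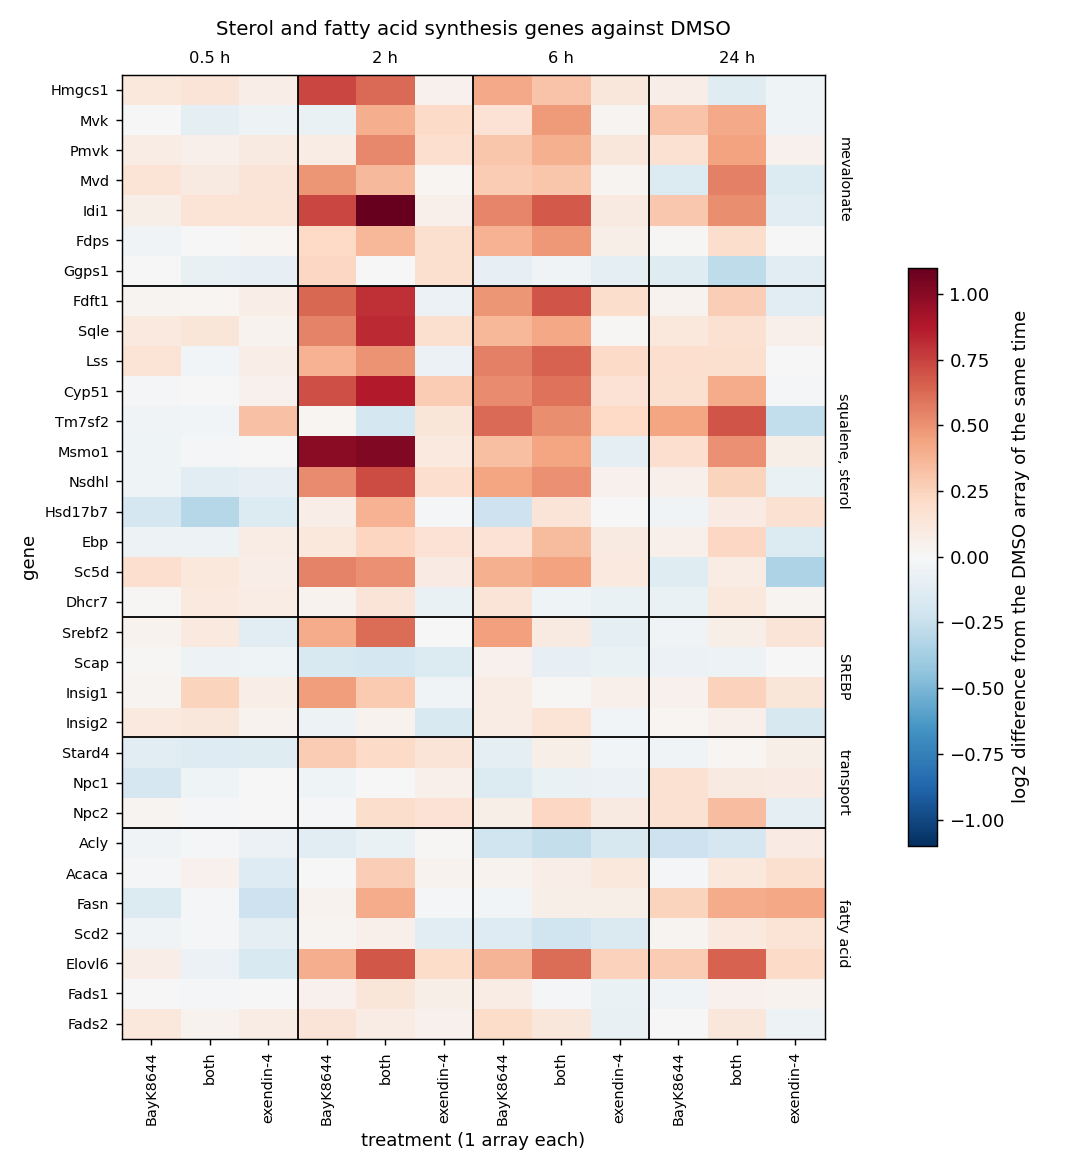
Log2 difference of each treated array from the DMSO array of the same time (colour, red higher and blue lower than DMSO) for the 32 tested genes, grouped by role on the vertical axis, with 1 array in each column. Red fills most of the mevalonate and sterol rows of the BayK8644 and both-agent columns at 2 h, where Idi1 reached 1.09 with both agents, and the exendin-4 columns are pale.

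At 0.5 h no change in these genes passed with BayK8644. By limma with Benjamini-Hochberg adjustment, 0 of the 32 genes had an adjusted p under 0.05, 0 reached an unadjusted p under 0.05, and 0.217% of all genes were called. Differences between the 2 arrays with BayK8644 and the 2 without it lay between -0.20 and 0.13. Both arrays with BayK8644 were above both without it for 5 of the 32 genes, where 19.0% of all genes were so placed, and both were below for 5, against 13.8% of all genes.

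At 2 h BayK8644 raised 10 of the 32 genes and lowered 0. Of all genes, 1.15% were called higher and 0.481% lower. The median difference was 0.21 over the 32 genes and -0.01 over all genes. The 10 were 2 of 7 mevalonate and isoprenoid enzymes, 6 of 11 sterol enzymes and 2 of 4 sensor genes, with 0 of 3 transport genes and 0 of 7 fatty acid genes. Here and below, the difference sets the 2 arrays with BayK8644 against the 2 without it at the same time. Its standard error (SE) is pooled over times. The scatter behind it is how far the arrays depart from a sum of the agents. In bulk RNA a change in the share of cells and a change in RNA per cell cannot be told apart.

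Among the mevalonate enzymes, Idi1, isopentenyl diphosphate isomerase, read 12.32 with both agents and 11.96 with BayK8644 at 2 h, against 11.28 with exendin-4 and 11.23 with DMSO. It rose by 0.89 ± 0.10 (SE, 1.85-fold, adjusted p = 0.00228). Hmgcs1, the cytosolic synthase that makes HMG-CoA, read 13.65 with both agents and 13.76 with BayK8644, against 13.07 with exendin-4 and 13.02 with DMSO. It rose by 0.66 ± 0.07 (1.58-fold, adjusted p = 0.00247). In both genes the arrays with and without BayK8644 did not overlap, and the arrays with exendin-4 alone lay within 0.06 of DMSO. The other mevalonate genes did not pass: Mvk, Pmvk, Mvd, Fdps and Ggps1, which encode the kinases, the decarboxylase and the prenyl diphosphate synthases, had differences between 0.03 and 0.41.

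The largest difference at 2 h was that of a sterol enzyme. Msmo1, the methylsterol monooxygenase that works on the sterol after Cyp51 and Tm7sf2, read 12.31 with both agents and 12.28 with BayK8644, against 11.40 with exendin-4 and 11.29 with DMSO. It rose by 0.95 ± 0.08 (1.94-fold, adjusted p = 0.000798). Fdft1, squalene synthase and the first step committed to sterols, read 12.28 with both agents and 12.10 with BayK8644, against 11.41 with exendin-4 and 11.47 with DMSO. Fdft1 rose by 0.75 ± 0.09 (1.68-fold, adjusted p = 0.00409). Cyp51 and Sqle moved the same way and without overlap. Cyp51, the lanosterol demethylase, read 13.44 with both agents and 13.27 with BayK8644, against 12.85 with exendin-4 and 12.57 with DMSO, a rise of 0.65 ± 0.07 (adjusted p = 0.00243). Sqle, squalene epoxidase, read 13.51 with both agents and 13.23 with BayK8644, against 12.86 with exendin-4 and 12.68 with DMSO, a rise of 0.60 ± 0.05 (adjusted p = 0.000831).

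Nsdhl, the decarboxylating sterol dehydrogenase that works after Msmo1, read 11.83 with both agents and 11.64 with BayK8644, against 11.30 with exendin-4 and 11.12 with DMSO, and rose by 0.52 ± 0.07 (adjusted p = 0.00902). Lss, lanosterol synthase, read 10.94 with both agents and 10.83 with BayK8644, against 10.38 with exendin-4 and 10.45 with DMSO, and rose by 0.47 ± 0.09 (adjusted p = 0.0348). The other 5 sterol enzymes did not pass. Tm7sf2, which acts directly after Cyp51, Hsd17b7, which works with Msmo1 and Nsdhl, and the isomerase Ebp, the desaturase Sc5d and the reductase Dhcr7 had differences between -0.15 and 0.48. The largest of these was Sc5d at 0.48 ± 0.13 (adjusted p = 0.164).

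Of the sensor genes, Srebf2, which encodes the sterol-regulated transcription factor itself, read 11.54 with both agents and 11.33 with BayK8644 at 2 h, against 10.93 with exendin-4 and 10.92 with DMSO. It rose by 0.51 ± 0.09 (1.42-fold, adjusted p = 0.0243). Insig1, a target of that factor and its brake, read 11.37 with both agents and 11.54 with BayK8644, against 11.04 with exendin-4 and 11.08 with DMSO. It rose by 0.40 ± 0.07 (1.32-fold, adjusted p = 0.0323). Scap and Insig2, the escort and the second retention protein, had differences of -0.10 and 0.07, adjusted p of 0.628 and 0.841. Stard4, Npc1 and Npc2, which carry cholesterol through the cytosol or out of lysosomes, had differences between -0.05 and 0.17 at 2 h.

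No fatty acid gene passed at 2 h. Elovl6, the elongase of saturated chains, came nearest, reading 9.51 with both agents and 9.23 with BayK8644, against 9.03 with exendin-4 and 8.83 with DMSO (0.44 ± 0.09, adjusted p = 0.0533). Its arrays did not overlap, although the exendin-4 array lay above the DMSO array. Fasn, fatty acid synthase, read 12.63 with both agents and 12.26 with BayK8644, against 12.20 with exendin-4 and 12.22 with DMSO (adjusted p = 0.457), so only the array with both agents stood apart. Acly, ATP citrate lyase, and Acaca, acetyl-CoA carboxylase, had differences of -0.10 and 0.12. The desaturases Scd2, Fads1 and Fads2 had differences between 0.06 and 0.11.

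The count at 2 h rests on few arrays: 1 gene passed without the exendin-4 array of 2 h or without the array with both agents, and 4 passed without the BayK8644 or the DMSO array of 2 h. Msmo1 passed with each of the 16 arrays left out in turn.

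**Figure D2:**
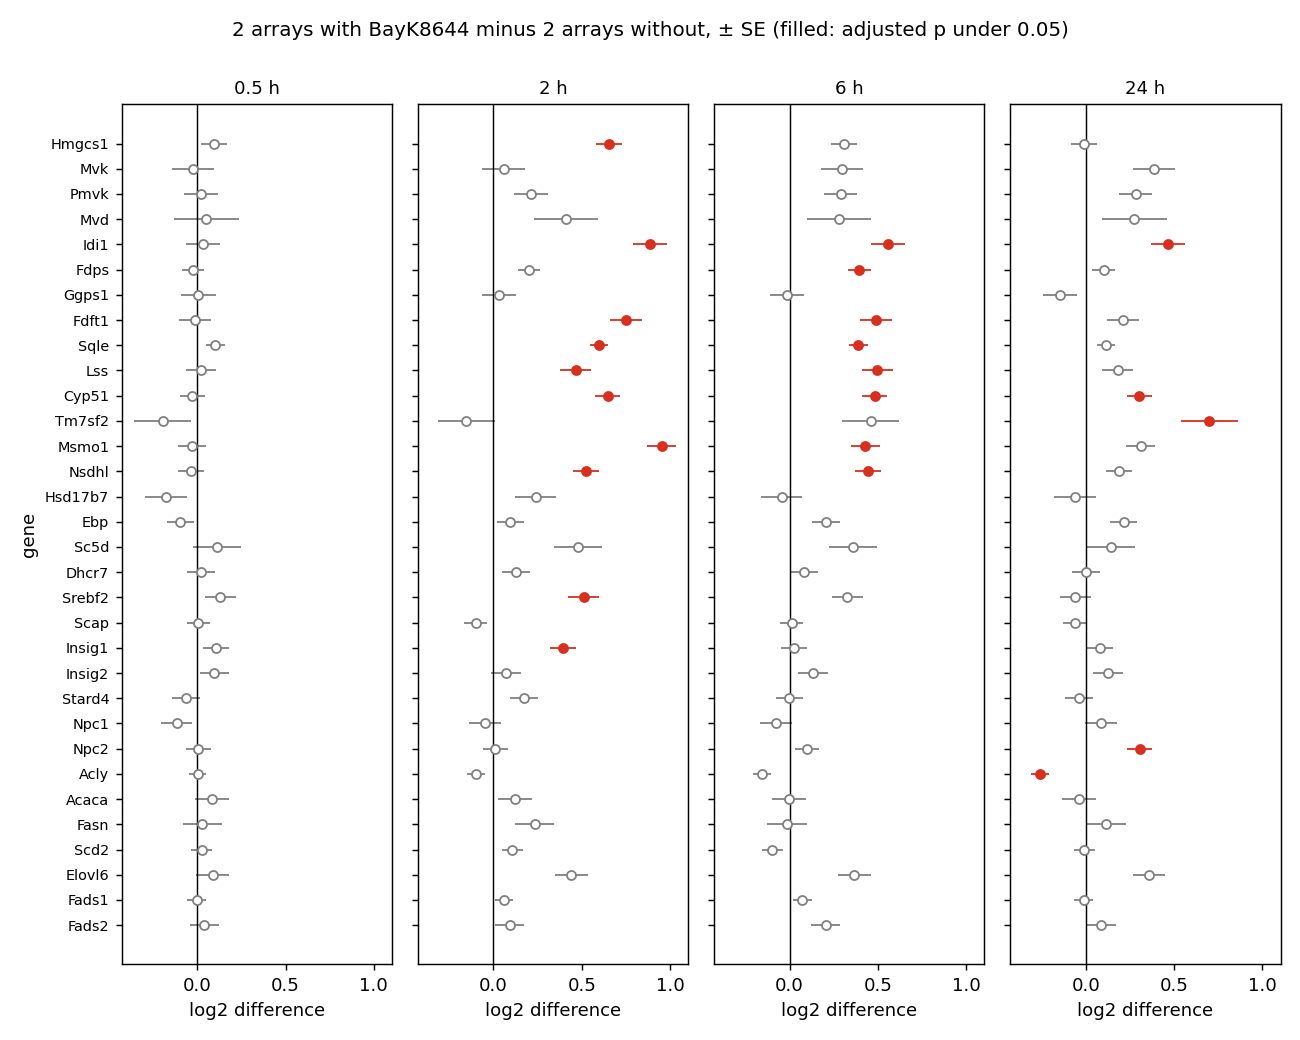
Difference between the 2 arrays with BayK8644 and the 2 without it at each time (log2, horizontal axis) for the 32 tested genes, with bars for 1 SE from the fit and filled points where the adjusted p was under 0.05. Filled points are 0 at 0.5 h, 10 at 2 h, 8 at 6 h and 5 at 24 h, of which Acly alone lies left of 0.

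The 2 pairs of arrays behind each difference share no array, and they were compared directly. At 2 h BayK8644 alone was above DMSO for 26 of the 32 genes, with a median difference of 0.18, and both agents were above exendin-4 for 27, with a median of 0.28. Both arrays with BayK8644 were above both without it for 20 genes, where 17.3% of all genes were so placed, and both were below for 2, against 24.2% of all genes. For Msmo1 the pairs gave 0.91 for both agents minus exendin-4 and 0.99 for BayK8644 minus DMSO. For Fdft1 they gave 0.87 and 0.63, and for Insig1 0.33 and 0.46. All 10 genes that rose were higher in both pairs. Each call was made from the mean of these same 2 pairs, so this gives the calls no separate support.

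**Figure D3:**
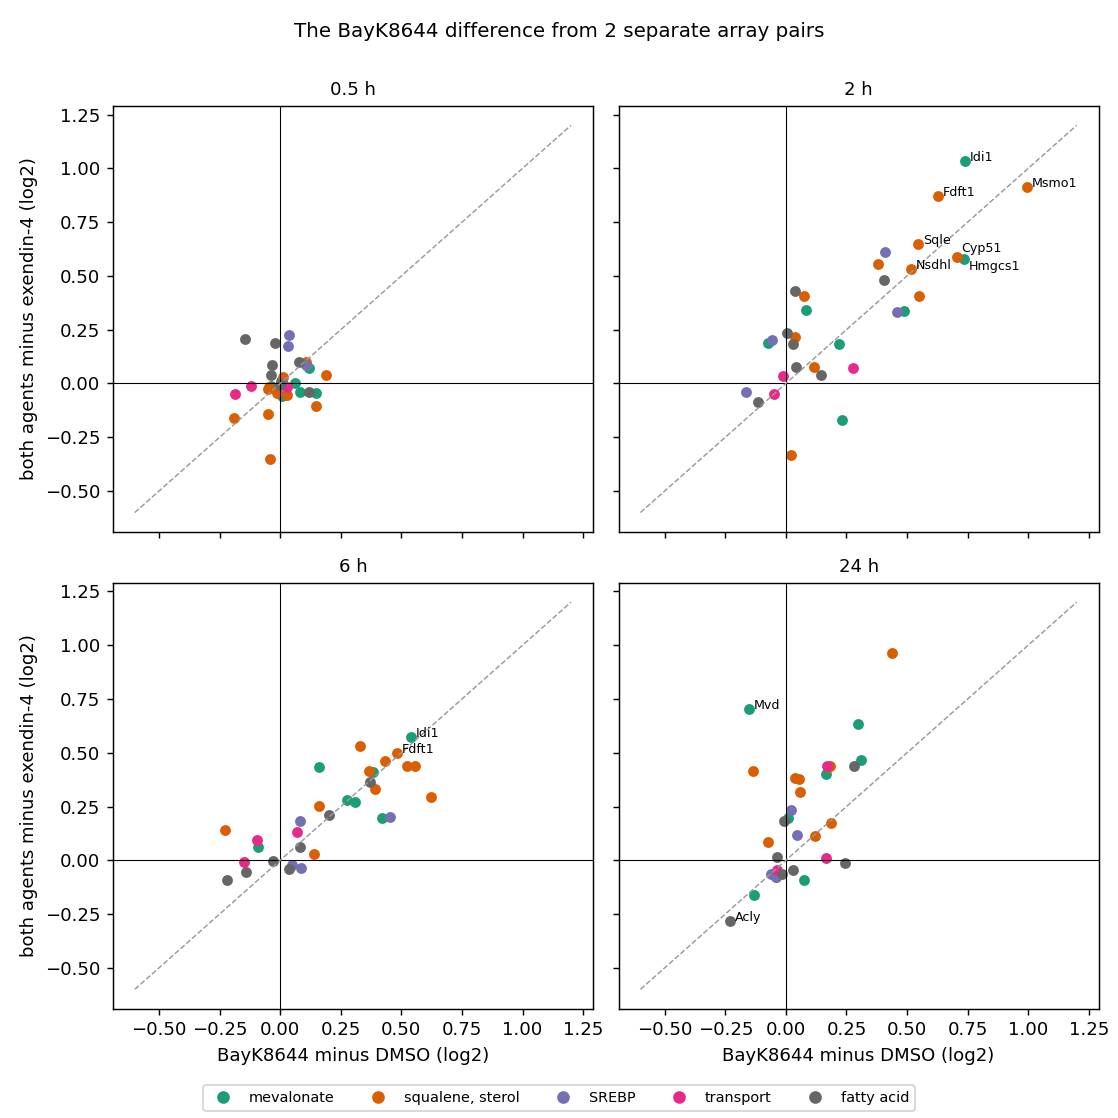
Log2 difference of both agents from exendin-4 (vertical axis) against that of BayK8644 from DMSO (horizontal axis) for the 32 tested genes at each time, coloured by role, with the dashed line marking equal values. The points gather around 0 at 0.5 h and spread along the line at 2 h, with Msmo1, Idi1 and Fdft1 far out, and at 6 h. They scatter off it at 24 h, where Mvd read 0.71 and -0.15.

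At 6 h the calls again lay in the mevalonate and sterol steps. BayK8644 raised 8 of the 32 genes and lowered 0, and 1.71% of all genes were called higher and 0.773% lower. The median difference was 0.24 over the 32 genes and 0.01 over all genes. The 8 were 2 of 7 mevalonate and isoprenoid enzymes and 6 of 11 sterol enzymes, and 7 of the 8 had also risen at 2 h. Both arrays with BayK8644 were above both without it for 19 genes, with 24.4% of all genes so placed, and both were below for 2, against 18.9% of all genes.

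Idi1 read 11.77 with both agents and 11.63 with BayK8644 at 6 h, against 11.19 with exendin-4 and 11.09 with DMSO, and rose by 0.56 ± 0.10 (adjusted p = 0.0197). Lss read 10.86 with both agents and 10.76 with BayK8644, against 10.42 with exendin-4 and 10.21 with DMSO, and rose by 0.50 ± 0.09 (adjusted p = 0.0233). Fdft1 read 11.93 with both agents and 11.72 with BayK8644, against 11.43 with exendin-4 and 11.24 with DMSO, and rose by 0.49 ± 0.09 (adjusted p = 0.0289). In each of these the groups did not overlap, and the exendin-4 array lay between DMSO and the arrays with BayK8644. Cyp51 read 13.08 with both agents and 13.01 with BayK8644, against 12.64 with exendin-4 and 12.48 with DMSO, and rose by 0.48 (adjusted p = 0.00896). Nsdhl read 11.65 with both agents and 11.58 with BayK8644, against 11.19 with exendin-4 and 11.15 with DMSO, and rose by 0.45 (adjusted p = 0.0161). The largest difference of 2 h was not the largest here. Msmo1 read 11.57 with both agents and 11.46 with BayK8644, against 11.04 with exendin-4 and 11.14 with DMSO, and rose by 0.43 (adjusted p = 0.0301). Sqle read 13.11 with both agents and 13.05 with BayK8644, against 12.70 with exendin-4 and 12.69 with DMSO, and rose by 0.39 (adjusted p = 0.00588).

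Fdps, farnesyl diphosphate synthase at the branch between sterols and other isoprenoids, passed at 6 h and not at 2 h. It read 12.26 with both agents and 12.17 with BayK8644, against 11.85 with exendin-4 and 11.79 with DMSO, a rise of 0.40 ± 0.06 (adjusted p = 0.0143). At 2 h its difference was 0.20 (adjusted p = 0.212), and the change between the times was not tested. Hmgcs1 had a difference of 0.31 that did not pass at 6 h (adjusted p = 0.0695), and so did Srebf2 with 0.33 (adjusted p = 0.105). For Srebf2 the arrays parted at 6 h: 11.34 with BayK8644 and 10.99 with both agents, against 10.79 with exendin-4 and 10.89 with DMSO. Insig1 read 10.83 with both agents and 10.90 with BayK8644, against 10.87 with exendin-4 and 10.81 with DMSO, so its groups overlapped. Among fatty acid genes 0 of 7 passed, with differences between -0.16 for Acly and 0.37 for Elovl6. The count at 6 h was 0 without any one of the 4 arrays of 6 h, and 2 with no intensity trend in the prior variance. It was 4 without any one of the arrays of 0.5 h, at which residuals were smallest. Here and for the other counts with BayK8644 at a time, leaving out 1 array of another time removes the whole residual of that time. The 4 arrays of another time therefore give in effect 1 check.

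At 24 h 8 of the 10 genes that rose at 2 h were no longer called, and Tm7sf2, Npc2 and Acly were called for the first time. BayK8644 raised 4 of the 32 genes, with 2.99% of all genes called higher, and lowered 1, with 2.12% called lower. The median difference was 0.12 over the 32 genes and 0.01 over all genes. Tm7sf2, a sterol reductase, read 9.27 with both agents and 9.02 with BayK8644, against 8.31 with exendin-4 and 8.58 with DMSO, and rose by 0.70 ± 0.16 (1.62-fold, adjusted p = 0.0429). Idi1 read 11.39 with both agents and 11.18 with BayK8644, against 10.76 with exendin-4 and 10.89 with DMSO, and rose by 0.47 ± 0.10 (adjusted p = 0.027). Cyp51 read 12.86 with both agents and 12.62 with BayK8644, against 12.43 with exendin-4 and 12.45 with DMSO, and rose by 0.30 ± 0.07 (adjusted p = 0.0429). The arrays with BayK8644 were above those without it in all these genes, by the widest margin in Tm7sf2.

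Npc2, the soluble lysosomal cholesterol carrier, read 12.98 with both agents and 12.81 with BayK8644 at 24 h, against 12.54 with exendin-4 and 12.64 with DMSO, and rose by 0.31 ± 0.07 (adjusted p = 0.0398). Its partner Npc1 had a difference of 0.09. Acly, which supplies cytosolic acetyl-CoA to both pathways, read 15.15 with both agents and 15.11 with BayK8644, against 15.44 with exendin-4 and 15.34 with DMSO. It fell by 0.26 ± 0.05 on the log2 scale (1.2-fold lower, adjusted p = 0.024), and it was the only fatty acid gene called with BayK8644 at a single time. Acly lay between 15.11 and 15.44 on all arrays, where saturation of the signal was not tested. Hmgcs1, the second largest mevalonate riser at 2 h, read 12.45 with both agents and 12.66 with BayK8644 at 24 h, against 12.54 with exendin-4 and 12.58 with DMSO, so its groups overlapped.

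At 24 h both arrays with BayK8644 were above both without it for 16 genes, with 23.5% of all genes so placed, and below for 3, against 22.5% of all genes. The 24 h count was 0 without any one of the 0.5 h arrays, without the exendin-4 array or without the array with both agents of 24 h. It was 11 without the BayK8644 or the DMSO array of 24 h, 2 without any one array of 2 h and 1 without any one of 6 h. It was also 1 with no intensity trend or with the mean of a gene's probe sets, and 2 with no filter. Of the residual sum of squares over all genes, 39.4% came from the arrays of 24 h and 12.1% from those of 0.5 h.

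Over the time course, 14 of the 32 genes passed with BayK8644 at some time. Their largest difference was at 2 h for 9, at 6 h for 2 (Fdps and Lss) and at 24 h for 3 (Tm7sf2, Npc2 and Acly). Of the 14, 7 passed at 1 time and 5 at 2, while Idi1 and Cyp51 passed at 3. Genes with further probe sets above the filter gave the same sign in every one: 10 of 10 further probe sets for genes called at 2 h, 5 of 5 at 6 h and 6 of 6 at 24 h. The sizes differed. A further probe set of Idi1 gave 0.13 at 6 h and 0.10 at 24 h, against 0.56 and 0.47. For Srebf2 at 2 h the further probe set gave 0.14 against 0.51. For Lss it gave 0.29 against 0.47 at 2 h and 0.08 against 0.50 at 6 h. For Cyp51 at 24 h 2 further probe sets gave 0.08 and 0.41 against 0.30. Some were larger, such as 0.91 against 0.66 for Hmgcs1 at 2 h.

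**Figure D4:**
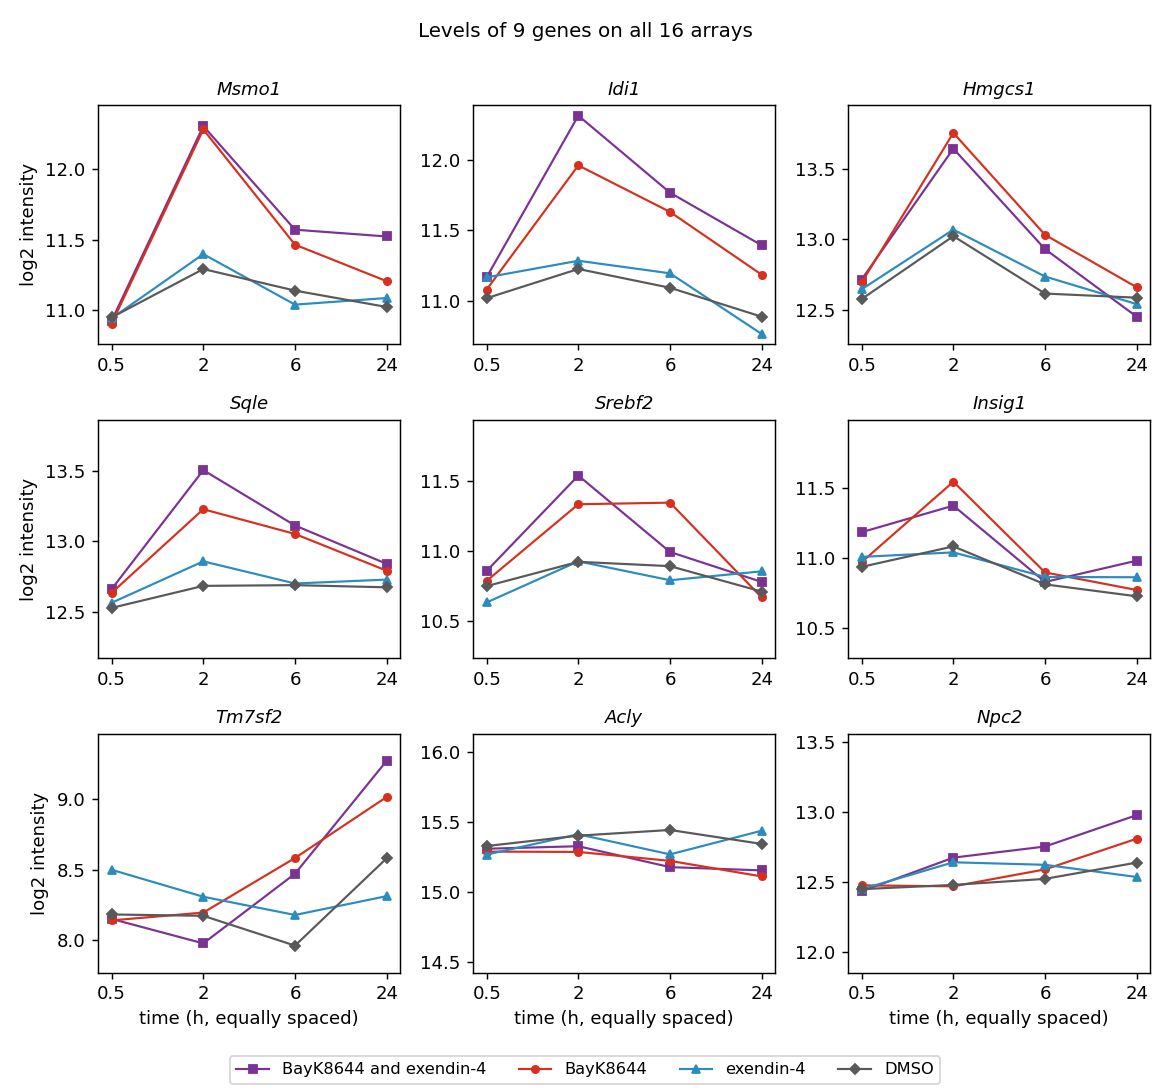
Log2 intensity of 9 genes (vertical axes, all spanning the same width) at 0.5, 2, 6 and 24 h, with 1 line for each treatment and 1 array at each point. Msmo1, Idi1, Hmgcs1 and Sqle peak at 2 h in both treatments with BayK8644 and, at lower levels, with exendin-4 alone. Tm7sf2 and Npc2 are highest at 24 h in the treatments with BayK8644 and with DMSO but not with exendin-4 alone. Acly is lower with BayK8644 at 24 h.

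The change of the BayK8644 difference between times was tested directly. From 0.5 h to 2 h it grew for 4 genes, and 0.207% of all genes were called higher. These were Msmo1 (larger by 0.98 ± 0.12, adjusted p = 0.0154), Idi1 (0.85 ± 0.13, adjusted p = 0.046), Cyp51 (0.68 ± 0.10, adjusted p = 0.0328) and Sqle (0.50 ± 0.08, adjusted p = 0.0381). The difference was larger at 2 h for 29 of the 32 genes. That count of 4 was 0 without any one array of 0.5 h or 2 h, 1 without any one of 6 h and 0 with no intensity trend. Between 2 h and 24 h the BayK8644 difference was smaller at 24 h for 24 of the 32 genes, yet 0 passed by limma (12 at an unadjusted p under 0.05), with 0.104% of all genes called. Hmgcs1 and Sqle came nearest, with changes of -0.66 and -0.48 and adjusted p of 0.0599 for each. The decline after 2 h described above is therefore given by the values and did not pass as a change.

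Exendin-4 gave no change that passed in any of these genes. At 0.5, 2, 6 and 24 h, 0 of the 32 genes were called by limma, with 0, 8, 2 and 4 at an unadjusted p under 0.05. The shares of all genes called were 0.00943, 0.0189, 0 and 0%. At 2 h the differences between the 2 arrays with exendin-4 and the 2 without it lay between -0.11 and 0.34. Mvk, mevalonate kinase, was highest, with 8.69 with both agents and 8.51 with exendin-4, against 8.22 with BayK8644 and 8.29 with DMSO (adjusted p = 0.777). Sqle had 0.23 (adjusted p = 0.415). Fasn had 0.29 at 24 h (adjusted p = 0.811), where the DMSO array read 11.74 and the other arrays between 11.99 and 12.17. Against DMSO over all times, exendin-4 alone gave 0 of 32 genes (0 at an unadjusted p under 0.05 and 0% of all genes called), with differences between -0.08 and 0.12.

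Set against DMSO with the 4 times standing in for replicates, the combination of agents raised 7 of the 32 genes and lowered 0, and 4.38% of all genes were called higher. They were Idi1 (0.61 ± 0.13, adjusted p = 0.0194), Cyp51 (0.47 ± 0.11, 0.0254), Elovl6 (0.47 ± 0.10, 0.0194), Fdft1 (0.45 ± 0.12, 0.0435), Sqle (0.39 ± 0.09, 0.0263), Pmvk (0.35 ± 0.08, 0.0211) and Fdps (0.26 ± 0.07, 0.0435). Elovl6 read 8.88, 9.51, 9.40 and 9.54 with both agents at 0.5, 2, 6 and 24 h, against 8.95, 8.83, 8.79 and 8.89 with DMSO. Pmvk, phosphomevalonate kinase, read 9.98, 10.47, 10.39 and 10.35 with both agents, against 9.93, 9.95, 10.003 and 9.90 with DMSO. In Elovl6 and Pmvk the later 3 times with both agents lay above all 4 DMSO arrays. Msmo1, with 0.48 ± 0.14, did not pass here (adjusted p = 0.0577). In this fit a difference that changes with time counts as error. The count was 0 without the array of both agents at 2, 6 or 24 h or the DMSO array of 2 or 6 h. It was 3 with no filter, 16 without the array of both agents at 0.5 h, 13 without the 24 h array of exendin-4 and 11 without the DMSO array of 0.5 h.

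BayK8644 alone, in the same fit and against the same DMSO arrays, gave 0 of 32 genes, with 11 at an unadjusted p under 0.05 and 0.839% of all genes called. Its differences were 0.41 for Idi1, 0.37 for Msmo1, 0.35 for Cyp51 and 0.34 for Hmgcs1, with adjusted p between 0.146 and 0.254. Without the DMSO array of 0.5 h 2 genes passed. The median over the 32 genes was 0.22 for both agents and 0.13 for BayK8644, beside 0.02 and -0.01 over all genes. Whether the agents added up was tested by their interaction, for which 0 of 32 genes passed by limma (1 at an unadjusted p under 0.05) and 0% of all genes were called. The interaction does not set both agents against BayK8644 alone, so whether the counts of 7 and 0 differ was not tested. The widest departure from a sum at a single time, with no replicate and no test, was Mvd at 24 h, which read 8.12 with both agents and 7.41 with BayK8644, against 7.41 with exendin-4 and 7.56 with DMSO.

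Differences between times were read with all 4 treatments averaged, and the averages include the arrays with BayK8644. At 2 h compared with 0.5 h, 11 of the 32 genes were higher, with 2.05% of all genes called higher. These were Msmo1 (0.89), Hmgcs1 (0.72), Idi1 (0.59), Cyp51 (0.57), Sqle (0.47), Lss (0.46), Srebf2 (0.42), Fasn (0.38), Stard4 (0.28), Scd2 (0.24) and Fads1 (0.16), with adjusted p between 0.00425 and 0.0432, and 7 of the 11 had also risen with BayK8644 at 2 h. At 6 h compared with 2 h, Hmgcs1 fell by 0.55 and Insig1 by 0.41, with 0.236% of all genes called lower. At 24 h compared with 6 h, Mvk fell by 0.38, Lss by 0.31, Fdps by 0.30 and Fads2 by 0.18, with 6.42% of all genes called lower. In the 8 arrays without BayK8644 alone, 0 of the 32 genes passed in any of these. There Hmgcs1 was higher by 0.44 at 2 h than at 0.5 h (adjusted p = 0.187), Msmo1 by 0.40 (0.242) and Sqle by 0.23 (0.309). With DMSO alone Hmgcs1 read 12.57, 13.02, 12.61 and 12.58 at 0.5, 2, 6 and 24 h, so a value at 2 h above the other times was seen with the vehicle as well. With DMSO, Idi1, Fdft1, Lss, Cyp51, Msmo1, Srebf2 and Insig1 were also highest at 2 h, and Sqle and Nsdhl were not. The count of 11 was 3 without the array of both agents at 2 h, 4 or 5 without the BayK8644 array of 0.5 h or 2 h, 5 without the array of both agents at 0.5 h, and 7 without the DMSO array of 2 h or the exendin-4 array of 0.5 h. The count of 2 at 6 h was 0 without any one BayK8644 array, the DMSO array of 6 h, the exendin-4 array of 0.5 or 6 h, or the both-agent array of 2 or 6 h. It was 1 without the DMSO array of 0.5, 2 or 24 h or the both-agent array of 24 h. The count of 4 at 24 h was 0 without the BayK8644 or both-agent array of 6 h, 1 without the BayK8644 or DMSO array of 24 h, and 7 without the both-agent array of 0.5 h. It was 2 without the BayK8644 array of 0.5 or 2 h, the DMSO array of 2 h, the exendin-4 array of 6 h or the both-agent array of 24 h.

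Genes next to these pathways were counted from a further list. Of 23 tested genes for other lipid synthesis and for processing of the sterol factor, BayK8644 raised 1 at 2 h, 3 at 6 h and 3 at 24 h, and lowered 1 at 24 h. Of all genes, 1.15, 1.71 and 2.99% were called higher at these times and 2.12% lower at 24 h. Hsd17b12, the ketoacyl-CoA reductase of fatty acid elongation, accounted for all 3 times with rises of 0.55, 0.94 and 0.80 (adjusted p = 0.00561, 0.00034 and 0.000499). It read 12.56 with both agents and 12.66 with BayK8644 at 6 h, against 11.71 with exendin-4 and 11.62 with DMSO. Tmem97, an endoplasmic reticulum protein that limits Npc1, rose by 0.39 at 6 h and 0.35 at 24 h. Fabp5, a fatty acid carrier, rose by 0.27 and 0.31 at those times, and Elovl5, an elongase of polyunsaturated chains, fell by 0.23 at 24 h.

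Of 5 tested genes of cholesterol efflux and targets of its oxysterol receptors (Abca1, Abcg1, Mylip, Scarb1 and Lpcat3), 0 rose with BayK8644 at 0.5, 2, 6 or 24 h, and Abca1 fell at 2 h and 6 h, when 0.481% and 0.773% of all genes were called lower. Abca1, the pump that exports cholesterol, read 6.92 with both agents and 7.48 with BayK8644 at 2 h, against 8.45 with exendin-4 and 8.89 with DMSO. It fell by 1.47 ± 0.18 on the log2 scale (adjusted p = 0.00403). At 6 h it read 6.32 with both agents and 6.09 with BayK8644, against 7.55 with exendin-4 and 8.12 with DMSO, and fell by 1.63 ± 0.18 (adjusted p = 0.00227). At 24 h Abca1 read 8.52 with both agents and 8.2 with BayK8644, against 9.09 with exendin-4 and 8.79 with DMSO, so both arrays with BayK8644 were again below both without it, and the difference of -0.58 did not pass (adjusted p = 0.0979).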

How the data were processed

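Total RNA from R7T1 cells was labelled with biotin after an Affymetrix single amplification and hybridised to 16 arrays of 1 colour, per the labels' protocols. The deposited values are linear intensity values for 45101 probe sets, made by the authors with GCRMA, which corrects background, quantile-normalizes arrays and summarises probes, per the submitters' processing notes. The sources used here name no GCRMA version and no further step. Precision is limited by the small number of arrays.

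Intensities were converted to log2 without a pseudocount. Of the probe sets, 34945 had 1 gene symbol in the platform annotation after 64 controls were set aside, and 19204 of these reached log2 4 on at least 2 arrays. The brightest probe set stood for a gene, which left 10610 genes. Models were fitted over all genes in R 4.3.3 with limma 3.58.1 (lmFit, eBayes with an intensity trend). The adjustment was Benjamini-Hochberg over the 10610 genes, with an adjusted p under 0.05 as the threshold for a call.

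One model gave time and an effect of each agent at each time (4 residual degrees of freedom), setting the 2 arrays with an agent against the 2 without it, with the agents assumed to add up. The other gave time and treatment (9 residual degrees of freedom). The fit was run on simulated data in which the agents added up and the noise was independent. That run could not test these assumptions or make up for the lack of replicates. Genes were named where called, by list. The members, the lists and the promoter motifs were chosen with earlier results of these data known. Alternatives were no filter, a filter at log2 6, the mean of probe sets, a pseudocount of 16, quantile normalization, no trend, and each array left out. Leaving out all arrays of 0.5 h or 24 h, or those with BayK8644 for the time comparisons, was chosen after seeing the data. Promoter sequences are from RefSeq.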

Additional observations from a re-analysis of the deposited data

Results flagged for a closer look

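For 4 genes the BayK8644 difference itself differed between 0.5 h and 2 h by a direct test in limma (Benjamini-Hochberg adjustment over all genes). It was larger at 2 h by 0.98 for Msmo1, 0.85 for Idi1, 0.68 for Cyp51 and 0.50 for Sqle, all on the log2 scale, with adjusted p of 0.0154, 0.046, 0.0328 and 0.0381. At 0.5 h the 2 arrays with BayK8644 minus the 2 without it gave -0.03 for Msmo1, 0.03 for Idi1, -0.03 for Cyp51 and 0.10 for Sqle. All 4 encode enzymes between mevalonate and cholesterol.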

How the results depend on the processing

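No paired analysis was possible because the labels carry no replicate numbers and each treatment and time had 1 array. The 51 called gene results all kept direction and call with a pseudocount of 16 and with the filter at log2 6, and 50 did with quantile normalization. These settings test the calls only weakly. No tested gene of the set read below 7.31, so the filter at log2 6 could remove none, and the pseudocount is small beside their intensities. The deposited values were already quantile-normalized. The call was lost for 22 with no filter, 17 with the mean of probe sets and 25 with no intensity trend, all in the same direction. For BayK8644 at 6 h the count of 8 became 2 with no trend and 4 without the arrays of 0.5 h. For BayK8644 at 24 h the count of 5 became 2 with no filter, 1 with the mean of probe sets, 1 with no trend and 0 without the arrays of 0.5 h. For both agents against DMSO 7 became 3 with no filter. For the BayK8644 difference at 2 h minus 0.5 h 4 became 2 with no filter and 0 with no trend, and for 24 h minus 2 h 0 became 1 with no filter. For culture time, 2 h minus 0.5 h gave 0 in arrays without BayK8644, 6 h minus 2 h gave 0 with no filter, with no trend and in arrays without BayK8644, and 24 h minus 6 h gave 1 with no filter and 0 in arrays without BayK8644. No filter adds genes to the adjustment and leaving out arrays lowers their number; the cause of the other losses was not tested. Leaving out 1 array gave ranges of 1 to 11 for BayK8644 at 2 h, 0 to 9 at 6 h and 0 to 11 at 24 h, 0 to 2 for BayK8644 against DMSO, 0 to 16 for both agents, 0 to 6 for the difference at 2 h minus 0.5 h, and 3 to 13, 0 to 3 and 0 to 7 for culture time. Of the 51, 4 kept their call with each array left out: Msmo1 with BayK8644 at 2 h, and Hmgcs1, Sqle and Msmo1 for culture time at 2 h minus 0.5 h.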
